A study of Mus musculus with 6 samples.

Results

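The transcripts of 10 integrin subunits, receptor chains for the extracellular matrix, were followed in freshly isolated mouse satellite cells, taken by gene symbol as Itga3, Itga4, Itga5, Itga6, Itga7, Itga9, Itgav, Itgb1, Itgb3 and Itgb5. The transcriptome held 54115 genes, of which 17152 had enough reads to be tested, and all 10 subunits were among these. RNA-sequencing compared 3 samples of Pax7WT mice with 3 of Pax7KR mice. Both groups were C57BL/6J, with uninjured hindlimb muscles, and the study used mice of 6 to 8 weeks for its experiments in young animals. Pax7KR mice carry a Cas9-made knock-in that puts arginine in place of 1 acetylated lysine of PAX7, the transcription factor that defines these cells, in every cell of the animal, so a difference between the groups need not arise within satellite cells. The sort kept cells with α7-INTEGRIN and CD34 at the surface and removed those with CD31, CD11b, SCA-1 or CD45. The product of Itga7 was therefore itself a criterion of the sort, and CD11b, encoded by Itgam, is another integrin subunit. Neither gene's level is independent of how the cells were chosen.

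Integrins span the plasma membrane as pairs of 1 α and 1 β subunit and tie the extracellular matrix to the actin cytoskeleton. The α subunit largely sets which matrix protein is bound, and the cytoplasmic tail of the β subunit recruits talin and kindlin, which switch the receptor to its active state. In adult skeletal muscle, satellite cells, the stem cells of the tissue, lie between the muscle fibre and a laminin-rich basal lamina. The α7β1 heterodimer is their best known laminin receptor and is used as a surface marker to purify them.

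Libraries held between 17822367 and 27908054 estimated reads. The summed level of 10 satellite cell markers ran from 6428 to 6953 CPM (counts relative to the library total after TMM scaling, which corrects for library composition) and overlapped between the genotypes, and Pax7 itself had a log2 fold change of -0.05 in Pax7KR over Pax7WT. Genes of the excluded surface proteins were low but not all at 0, with 8 to 35 reads of Itgam, 2 to 29 of Ptprc (CD45), 117 to 218 of Ly6a (SCA-1) and 390 to 1204 of Pecam1 (CD31). In 3 libraries something else stood apart. Pax7KR replicate 1 carried transcripts of platelets, which are described with Itgb3. Pax7KR replicate 2 held Y-linked transcripts at a sum, with Xist, of 131.6 CPM against 299.8 to 357.7 CPM in the others. Xist alone was at 0.880 CPM in Pax7KR replicate 2, within the range of 0.437 to 2.29 CPM over all libraries. Pax7WT replicate 2 was lowest for 12 activation and dissociation genes, at 26043 CPM against 32435 to 42439 CPM. Bulk RNA cannot tell fewer cells of a type from less RNA per cell.

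The subunits of the α7β1 receptor had the most abundant transcripts of the 10 in both genotypes. Itgb1 (chr8:128685654-128733200, plus strand, GRCm38), the common partner of the laminin, fibronectin and α4-class α subunits, was highest of the 10 at 283.1 to 311.9 TPM, a scale per transcript length on which different genes can be compared. Itga7 (chr10:128933818-128958282, plus strand) followed at 168.4 to 198.7 TPM, and Itgb5 (chr16:33829665-33949338, plus strand), a partner of αv in vitronectin binding, at 45.7 to 58.9 TPM. Itgav (chr2:83724397-83806916, plus strand), the αv subunit that binds the arginine-glycine-aspartate motif, lay at 21.3 to 25.0 TPM, and Itga5 (chr15:103344286-103366763, minus strand), the α subunit of the fibronectin receptor, at 10.4 to 12.9 TPM. These 5 levels did not overlap over the 6 libraries, so their order was the same in each.

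The lower members were less clearly ordered. Itga3 (chr11:95044474-95076801, minus strand) lay at 6.15 to 8.06 TPM and Itga6 (chr2:71745616-71858416, plus strand) at 2.76 to 7.77 TPM, and these ranges overlapped. Both encode laminin-binding α subunits. Itga9 (chr9:118606690-118901003, plus strand), whose protein binds tenascin-C and related ligands, ran from 0.315 to 1.85 TPM, and overlapped with Itgb3 (chr11:104608000-104670476, plus strand), the β3 partner of αv and of the platelet subunit αIIb, at 0.298 to 2.73 TPM. Itga4 (chr2:79255426-79333123, plus strand), the α4 receptor for VCAM1 and fibronectin, was lowest at 0.0303 to 0.213 TPM, which rested on 4 to 18 reads per library. The span from Itga4 to Itgb1 is plotted on a log axis.

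**Figure D1:**
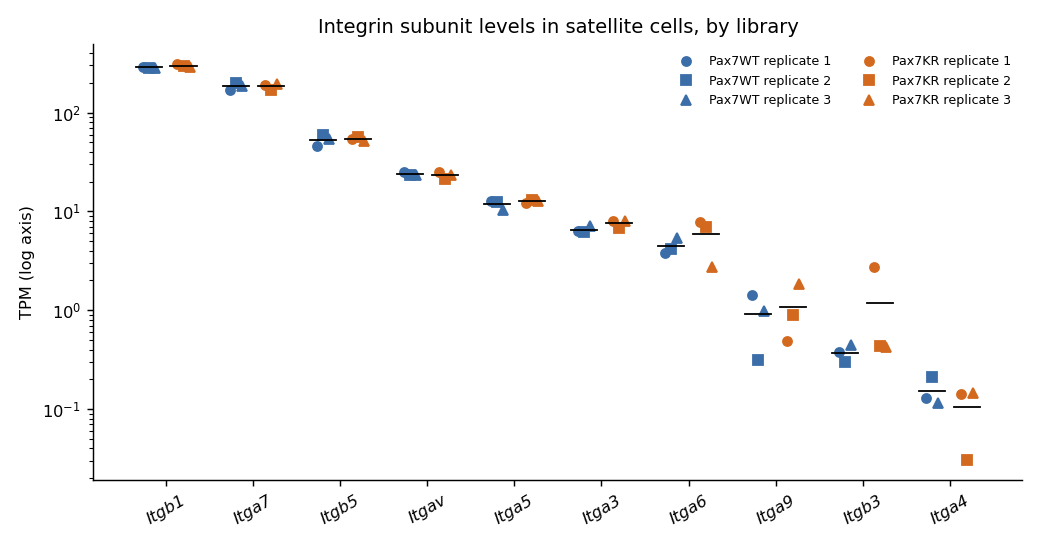
TPM (log axis) of each of the 10 integrin subunits, ordered by their mean, with 1 point per library (blue Pax7WT, orange Pax7KR, shapes for replicates) and a black line at each group's mean. The groups overlap for every subunit, and Pax7KR replicate 1 lies apart for Itgb3, at 2.73 TPM.

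Itga7 held 79.3% ± 1.85 (SD, n = 3) of the summed TPM of the 7 α members in Pax7WT and 78.5% ± 1.21 in Pax7KR. Within the 3 β members, Itgb1 held 84.4% ± 1.85 and 84.3% ± 0.466. The laminin-binding subunits together, α3, α6 and α7, held 84.0% ± 1.79 of the α sum in Pax7WT and 84.3% ± 0.243 in Pax7KR (exact permutation test, two-sided, p = 1.0, where 3 against 3 libraries cannot go below 0.1). The summed α level was 0.682 ± 0.0362 of the summed β level in Pax7WT and 0.664 ± 0.0435 in Pax7KR (exact permutation p = 0.7). Among the 10 shares, 9 overlapped between the genotypes. Itga3 was the other, with 2.91%, 2.51% and 3.04% of the α sum in Pax7WT replicates 1 to 3 and 3.32%, 3.12% and 3.29% in Pax7KR, the smallest p this design allows (exact permutation p = 0.1, before any adjustment over the 10 shares). The Itga3 shares overlapped when CPM was used in place of TPM and when only protein-coding transcripts were summed.

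None of the 10 subunits passed the test for a difference between Pax7KR and Pax7WT, which was run across all genes. By edgeR's quasi-likelihood test, 0 members passed an adjusted p of 0.1 (background, 0% of 17152 genes), 0 had an unadjusted p below 0.05 (background 4.68%), and 0 were called by DESeq2 (background 0.175%). In 0 of 10 were the CPM values of the groups free of overlap, against a background of 10.3% of all genes tested (5.14% with all Pax7KR values above and 5.19% with all below). Of the members, 6 were higher and 4 lower, with log2 fold changes from -0.34 for Itga4 to 1.70 for Itgb3. Their median was 0.03, and the median size irrespective of sign was 0.055. Over all genes tested, which were not matched to the members for level, the corresponding median size was 0.11. Leaving out each library in turn brought 0 members past the threshold. The labels speak of biological samples but do not say how many mice each held, so p-values measure the spread between these samples, which may be partly technical.

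Among the laminin-binding α subunits, Itga7 gave 325, 381 and 339.6 CPM in Pax7WT replicates 1 to 3 and 338, 302 and 355 CPM in Pax7KR. Pax7KR replicate 2 was lowest and Pax7WT replicate 2 highest, and the other 4 libraries lay between them with the genotypes mixed. Its log2 fold change was -0.07 (SE 0.08, edgeR adjusted p = 0.998), with a 95% interval from 15.3% lower to 6.90% higher. Itga3 gave 16.6, 17.8 and 20.0 CPM in Pax7WT and 20.3, 18.8 and 16.7 CPM in Pax7KR, a log2 fold change of 0.04 (SE 0.12). The lowest Itga3 value was Pax7WT and the highest Pax7KR, and the groups overlapped over most of their range.

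Itga6 was the most variable of the members with more than 100 reads in every library. Its CPM was 7.94, 9.20 and 11.5 in Pax7WT and 15.0, 12.0 and 6.05 in Pax7KR, from 128 to 344 reads. The Pax7KR libraries therefore held both the 2 highest values and the lowest, and the coefficient of variation was 41.5% there against 19.2% in Pax7WT. The log2 fold change of 0.21 (SE 0.33, 95% interval -0.59 to 1.01) became -0.08 without Pax7KR replicate 1 and 0.50 without Pax7KR replicate 3. The α6 subunit is also made by endothelial cells, and 12 endothelial markers summed to 347, 331 and 423 CPM in Pax7WT and 428, 488 and 366 CPM in Pax7KR. All 12 were detected, with Tek at 184 to 231 CPM taking much of the sum, Pecam1 at 20.7 to 50.4 CPM and Cdh5 at 15.6 to 35.3 CPM. Pax7WT replicate 3 and Pax7KR replicates 1 and 2 were the 3 highest libraries for both the sum and Itga6. Summed levels of 7 Schwann and glial markers, of cells that also make α6, were 106, 116 and 127 CPM in Pax7WT and 108, 104 and 82.1 CPM in Pax7KR. Pax7KR replicate 3 was lowest for these, for Itga6 and also for markers of myofibres and of smooth muscle, while Pax7KR replicate 2 was next lowest for the glial sum and next highest for Itga6. The part of these cells in Itga6 was not tested.

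Of the α subunits for arginine-glycine-aspartate ligands, Itgav varied least between libraries of the 7 α members, with coefficients of variation of 5.01% and 2.09%, while Itga5 had 15.9% and 12.8%. Itgav gave 76.7, 69.5 and 74.8 CPM in Pax7WT and 77.5, 74.6 and 75.0 CPM in Pax7KR. Pax7KR replicate 1 was highest and Pax7WT replicate 2 lowest, and the log2 fold change was 0.04 (SE 0.07), with a 95% interval from 6.83% lower to 13.3% higher. Itga5 gave 24.1, 25.3 and 18.6 CPM in Pax7WT and 25.8, 25.9 and 20.5 CPM in Pax7KR. The replicate numbered 3 was lowest for Itga5 in both groups, although no sign of pairing by replicate number was seen. The Itga5 log2 fold change was 0.09 (SE 0.13, interval from 12.9% lower to 29.7% higher).

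The α subunits of the α4 and α9 class were near the limit of detection. Itga4 gave 0.515, 0.677 and 0.682 CPM in Pax7WT and 0.787, 0.168 and 0.520 CPM in Pax7KR, and Pax7KR replicate 2, with 4 reads, was lowest. The 95% interval of Itga4 ran from 69.4% lower to 104% higher, so a 2-fold change in either direction lay within it. Itga9 gave 2.17, 1.35 and 4.14 CPM in Pax7WT and 1.97, 3.60 and 2.22 CPM in Pax7KR from 24 to 86 reads, a log2 fold change of 0.02 (SE 0.40). The highest and the lowest Itga9 values were both Pax7WT.

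Of the β subunits, Itgb1 was the most precisely measured of all members. It gave 663, 642 and 650.0 CPM in Pax7WT and 664, 628 and 639.7 CPM in Pax7KR, coefficients of variation of 1.64% and 2.82%. Pax7KR held both the highest and the lowest value. The log2 fold change of -0.02 (SE 0.06) had a 95% interval from 9.79% lower to 8.22% higher. Itgb5 gave 75.6, 94.7 and 86.7 CPM in Pax7WT, and its 3 Pax7KR values of 82.1, 88.8 and 85.0 CPM lay inside that range, at a log2 fold change of -0.01 (SE 0.08). Words of 31 bases found in another gene's transcripts as well made up 7.86% of those of Itgb5 and 6.15% of those of Itga6, against at most 1.20% for the remaining 8 members, so counts of these 2 were the most open to sharing reads.

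**Figure D2:**
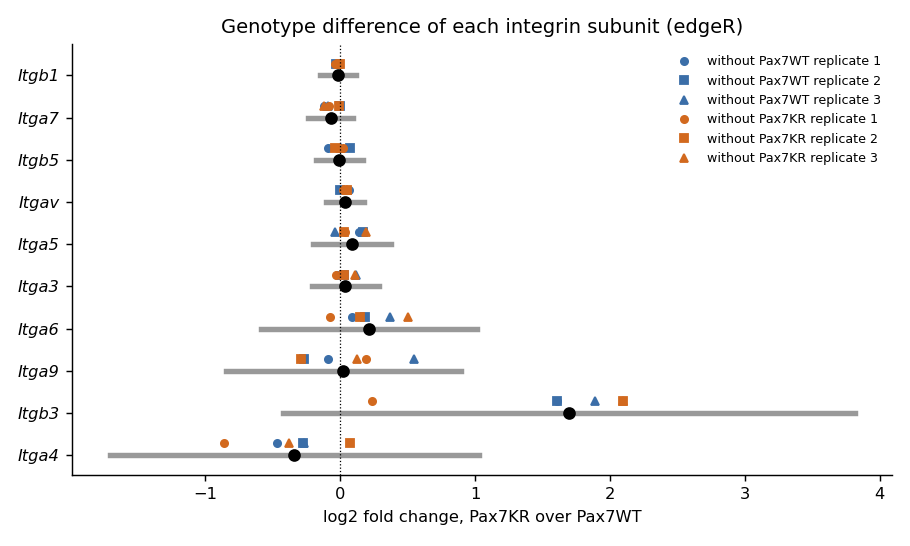
Log2 fold change of Pax7KR over Pax7WT for each integrin subunit, with the edgeR estimate as a black point, its 95% interval as a grey bar and the estimates without each library in turn as coloured markers above it. All 10 intervals include 0, and the estimate for Itgb3 falls from 1.70 to 0.23 without Pax7KR replicate 1.

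Itgb3 had the largest fold change of the members, and it came from 1 library. The gene had 30, 19 and 32 reads in Pax7WT and 210, 35 and 31 in Pax7KR, or 1.10, 1.07 and 1.56 CPM against 9.18, 1.47 and 1.47 CPM. Pax7KR replicate 1 was 5.89-fold above the next library, and the other 2 Pax7KR values lay within the Pax7WT range. The log2 fold change was 1.70 (SE 0.85, 95% interval -0.43 to 3.82, edgeR unadjusted p = 0.0969, adjusted p = 0.992) and 0.23 without that library.

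The same library held transcripts of platelets, in which β3 pairs with αIIb as the fibrinogen receptor. Ppbp, a platelet chemokine, had 408 reads there and 0 to 10 in the other 5 libraries. Pf4, platelet factor 4, had 41 reads against 0 to 10, and Gp1bb, a subunit of the von Willebrand factor receptor, had 11 reads against 0 in each other library. All 6 platelet and megakaryocyte markers were highest in Pax7KR replicate 1, and the 5 that are not integrins summed to 20.9 CPM there and to 0.0565 to 0.845 CPM elsewhere. Gp9 and Treml1 were at 0 reads in 4 libraries and Gp1bb in 5. Integrin genes used by platelets were highest in that library as well, with 172 reads of Itga2b (αIIb) against 61 to 97, 77 of Fermt3 (kindlin-3) against 13 to 24, and 160 of Parvb (β-parvin) against 45 to 73. In TPM, Itga2b stood less apart, at 8.66 there and 3.55 to 7.96 in the other libraries. Fermt3 and Parvb were named after these values were seen. The part of platelet RNA in the Itgb3 reads was not tested.

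**Figure D3:**
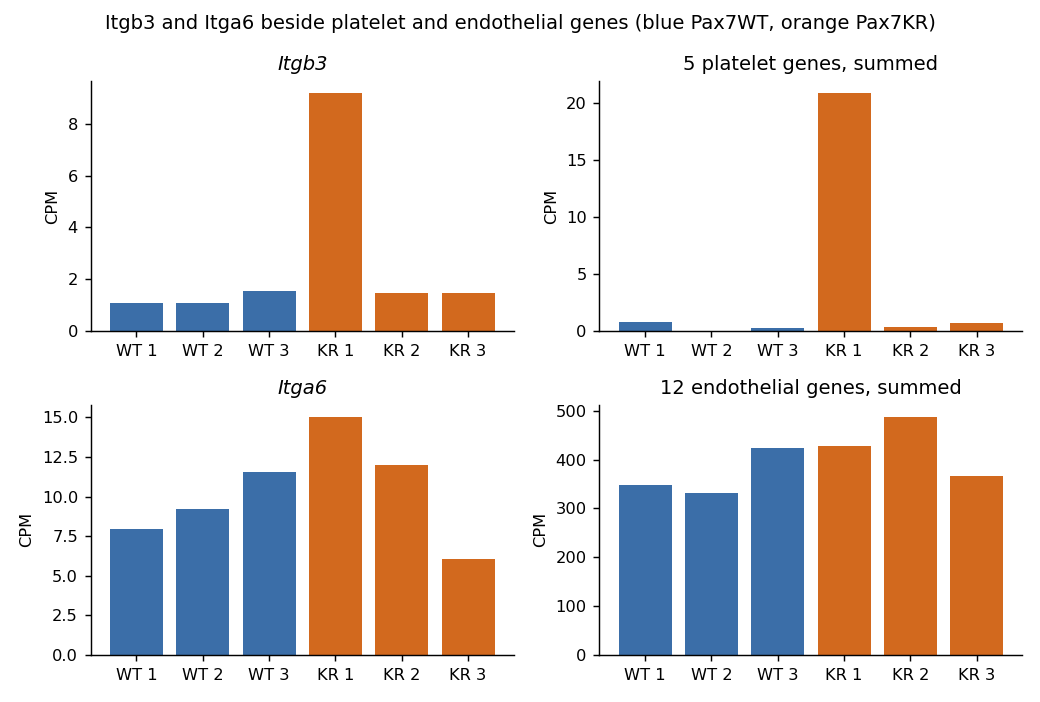
CPM by library of Itgb3 beside the sum of 5 platelet genes that are not integrins (top), and of Itga6 beside the sum of 12 endothelial genes (bottom), with 1 bar per library. Pax7KR replicate 1 stands out at 9.18 CPM for Itgb3 and 20.9 CPM for the platelet sum, while the Itga6 and endothelial bars vary in both genotypes.

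Below the level of the gene, Itga7 is known for alternative exons, a mutually exclusive pair in the extracellular part, next to the laminin-binding surface, and a further exon that changes the cytoplasmic tail. The exons are printed here because they define the receptor forms that the transcript estimates separate. Capitals mark the exon and lower case the 15 bases of its neighbours on either side, 5′ to 3′ as transcribed, from GENCODE transcripts on the plus strand of GRCm38. The 132-base exon (chr10:128941445-128941576) belongs to transcript Itga7-202, the 120-base exon (chr10:128941822-128941941) to Itga7-201, and the 113-base exon (chr10:128956611-128956723) to a further coding transcript.
Itga7 132-base exon: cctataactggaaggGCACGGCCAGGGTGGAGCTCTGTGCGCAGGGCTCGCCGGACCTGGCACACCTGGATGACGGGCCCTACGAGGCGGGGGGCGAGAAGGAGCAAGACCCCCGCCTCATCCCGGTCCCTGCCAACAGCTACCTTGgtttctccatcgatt
Itga7 120-base exon: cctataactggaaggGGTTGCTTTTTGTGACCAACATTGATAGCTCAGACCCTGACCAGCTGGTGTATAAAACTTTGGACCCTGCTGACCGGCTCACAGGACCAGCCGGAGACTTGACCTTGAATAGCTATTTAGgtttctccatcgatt
Itga7 113-base tail exon: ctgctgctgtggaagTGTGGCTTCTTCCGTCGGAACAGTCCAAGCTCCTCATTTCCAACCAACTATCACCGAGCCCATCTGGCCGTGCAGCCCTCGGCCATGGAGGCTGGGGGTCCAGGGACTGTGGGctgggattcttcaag

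The 132-base and the 120-base exon share the same flanks and encode 44 and 40 codons, so either keeps the reading frame. Their base composition differs, with a GC content of 70.5% in the longer and 49.2% in the shorter. The 113-base exon is no multiple of a codon and shifts the frame of what follows, which leaves 171 coding bases after the last shared exon in place of 228 and thereby another C-terminal tail.

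Satellite cells of both genotypes used mainly the 120-base exon. Among Itga7-201 and Itga7-202 together, the form with the 132-base exon made up 8.09%, 12.8% and 14.1% of TPM in Pax7WT and 16.3%, 13.9% and 14.5% in Pax7KR. Pax7WT replicate 1 was lowest, and Pax7KR replicate 2 lay within the Pax7WT range, so the groups overlapped. The means were 11.7% ± 3.16 (SD, n = 3) and 14.9% ± 1.22 (exact permutation test, two-sided, p = 0.2), from 6165 to 8106 reads of both transcripts per library. The 113-base tail exon was all but absent, at 0% to 0.294% of the coding TPM. At 0% it was listed at 0, in 2 Pax7WT and 1 Pax7KR libraries. These shares are salmon estimates, so reads that fit several transcripts were divided by its model.

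**Figure D4:**
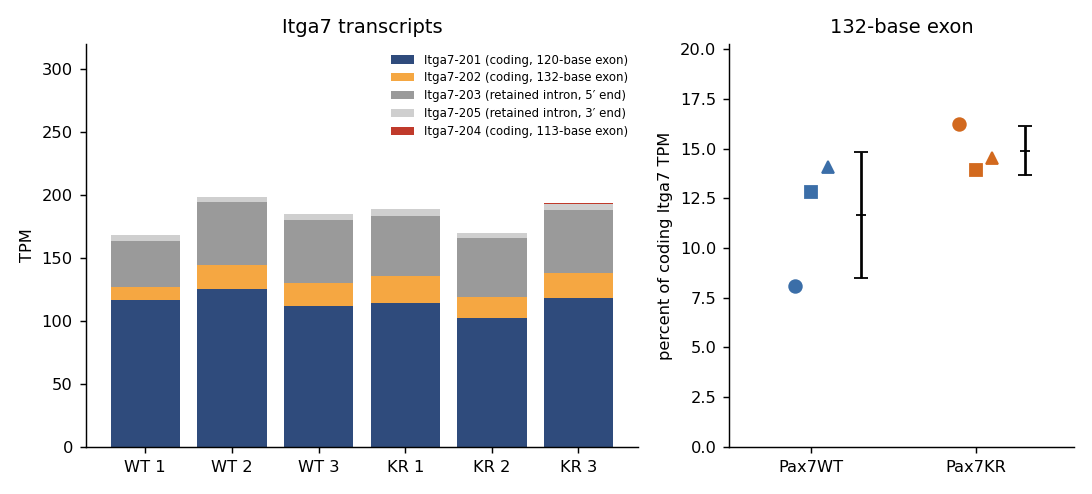
Left, TPM of the 5 Itga7 transcripts stacked by library. Right, the 132-base exon as a percent of the TPM of Itga7-201 and Itga7-202, with 1 point per library and the mean ± SD (n = 3) beside each group, 11.7% ± 3.16 in Pax7WT and 14.9% ± 1.22 in Pax7KR.

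Not all of the Itga7 signal was assigned to coding transcripts. Coding transcripts gave 69.9% to 75.4% of its TPM, and Itga7-203, annotated as a retained-intron transcript of the 5′ end, gave 22.0% to 27.4%. TPM is per transcript length, and in reads Itga7-203 was a smaller part. It had 422 to 497 estimated reads per library, of 6750 to 8852 for the gene. For Itga6 the coding share was 40.3% to 68.8%, since the processed transcript Itga6-203 took 31.2% to 50.8%. It was 97.0% or more in each library for Itgav and Itgb1, and 100% for Itgb5. In Itga6, 100% of the TPM of coding transcripts held the 130-base tail exon (chr2:71853534-71853663, plus strand), in all 6 libraries. When Itga6-203, which lacks the exon, was counted as well, the share was 57.5% ± 10.1 in Pax7WT and 54.9% ± 8.93 in Pax7KR (exact permutation p = 0.7). Among transcripts annotated as coding, the tail exon was thus left out of nearly all Itga7 and held by all Itga6. For Itga6 this depends on the annotation of Itga6-203 as not coding. With Itga6-203 counted, the exon share ran from 46.2% to 68.8% over the 6 libraries.

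Shares of a gene's TPM were compared between the genotypes for 25 member transcripts, those with a mean of 5% or more in either genotype in a gene with at least 2 of them, which leaves out Itgb1. Of the 25, 2 were free of overlap, against a background of 9.39% of 40942 transcripts chosen in the same way over all genes tested. Both belonged to Itgav and were singled out after their values were seen. As shares of the same gene's TPM they are not independent, since a gain in either leaves less for the other. Itgav-201, with 1201 to 2024 reads per library, held 71.0% to 75.5% of the gene's TPM in Pax7WT and 78.9% to 90.8% in Pax7KR, and Itgav-206 held 21.7% to 28.4% and 8.60% to 18.9%. Itgav-206 rested on 10 to 37 reads per library. When each library's mean transcript length entered the edgeR fit, which takes such shares into account, the log2 fold change of Itgav was -0.11 in place of 0.04, and it was not called in either fit.

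Integrin subunits outside the 10 members were also detected in these samples. Of 16, 13 were tested, and 7 were higher and 6 lower in Pax7KR. By edgeR 0 were called (background 0%), and by DESeq2 0 (background 0.175%). Of the 13, 0 had an unadjusted p below 0.05 (background 4.68%) and 0 were free of overlap (background 10.3%). Their median log2 fold change was 0.21, against -0.0037 over all genes tested. With 7 higher and 6 lower, this median was the smallest of the positive values. The median size irrespective of sign was 0.27, against 0.11 over all genes tested, which were not matched to these subunits for level. Itga8, an α subunit for arginine-glycine-aspartate ligands that pairs with β1, had 18.1 ± 2.34 TPM in Pax7WT and 17.6 ± 1.89 in Pax7KR, which is above Itga5 in every library (log2 fold change -0.12, SE 0.09). Itgb8, the partner of αv in activation of latent TGF-β, had 3.82 ± 0.0503 and 3.65 ± 0.322 TPM. Both genes also served as markers of other cells. Itga8 was among the smooth muscle and pericyte markers, whose other 7 summed to 2317 to 2841 CPM. Itgb8 was among the Schwann and glial markers, whose other 7 summed to 82.1 to 127 CPM. The part of these cells in Itga8 and Itgb8 was not tested. Itgb4, the partner of α6 in hemidesmosomes, had 1.98, 2.20 and 2.10 TPM in Pax7WT and 2.78, 4.13 and 1.97 TPM in Pax7KR. The Itgb4 log2 fold change of 0.43 (SE 0.23) fell to 0.12 without Pax7KR replicate 2. The collagen-binding Itga1, Itga10 and Itga11 had 2.23, 1.61 and 1.05 TPM on average in Pax7WT and 2.60, 2.02 and 1.09 TPM in Pax7KR. Itgal, a leukocyte subunit, had 0.897 and 1.11 TPM.

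The cytoplasmic partners of integrins were followed through 36 activators and adaptors, of which 35 were tested. Of these, 23 were higher and 12 lower, and 3 had an unadjusted p below 0.05 (background 4.68%). By edgeR 0 were called (background 0%), and by DESeq2 0 (background 0.175%). In CPM, 6 of the 35 were free of overlap (background 10.3%), 5 of them with all Pax7KR values above (background 5.14%). Actn1, the cross-linker α-actinin-1, gave 70.0, 74.4 and 68.9 CPM in Pax7WT and 81.6, 88.0 and 80.5 CPM in Pax7KR. All Pax7KR values exceeded all Pax7WT values, at a log2 fold change of 0.23 (SE 0.07, edgeR adjusted p = 0.992). Tns1, tensin-1, gave 164, 203 and 217 CPM against 218, 264 and 262 CPM, where Pax7WT replicate 3 and Pax7KR replicate 1 nearly touched (log2 fold change 0.35, SE 0.11, edgeR adjusted p = 0.992), and in TPM the Tns1 groups overlapped. Apbb1ip, the RIAM adaptor between RAP1 and talin, had a log2 fold change of 0.79 (SE 0.36) and 0.45 without Pax7KR replicate 1. It gave 2.68, 1.13 and 2.34 CPM against 5.12, 2.72 and 2.93 CPM, so its groups nearly touched but overlapped in neither CPM nor TPM. The highest adaptors by level, Actn4 and Flna, had log2 fold changes of 0.09 and -0.0047. Actn4 gave 927, 939 and 899 CPM against 967, 988 and 996 CPM, without overlap in CPM or TPM, while the Flna groups overlapped.

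Among 12 tetraspanins and other membrane partners, 5 were higher and 7 lower. By edgeR 0 were called (background 0%), and by DESeq2 0 (background 0.175%). Of the 12, 0 had an unadjusted p below 0.05 (background 4.68%) and 2 were free of overlap in CPM (background 10.3%). Cd9 gave 161, 167 and 156 CPM in Pax7WT and 150.2, 150.3 and 147 CPM in Pax7KR (log2 fold change -0.11, SE 0.06), and Cd82 gave 448, 449.5 and 457 CPM against 476, 471 and 477 CPM (log2 fold change 0.07, SE 0.06). In TPM the groups overlapped for both tetraspanins, so the separation was seen in CPM alone. Cd63 was the most abundant, at 985 and 979 TPM on average.

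Of 24 integrin ligands 23 were tested, 10 higher and 13 lower, with 0 called by edgeR (background 0%). Of these, 1 had an unadjusted p below 0.05 (background 4.68%) and 1 was free of overlap in CPM (background 10.3%). Fn1, which encodes fibronectin, the ligand of α5β1, gave 33.1, 29.5 and 36.4 CPM in Pax7WT and 47.6, 59.2 and 44.0 CPM in Pax7KR. Every Pax7KR library lay above every Pax7WT library, with a log2 fold change of 0.61 (SE 0.12) that did not pass edgeR (unadjusted p = 0.00027, adjusted p = 0.445) but passed DESeq2 (adjusted p = 0.00883). Of the genes in these 4 lists, 1 was called by DESeq2 (background 0.175%), and this was Fn1. Its receptor subunits Itga5 and Itgb1 had log2 fold changes of 0.09 and -0.02. The 12 endothelial markers summed to 347, 331 and 423 CPM in Pax7WT and 428, 488 and 366 CPM in Pax7KR. Pax7WT replicate 2 was lowest and Pax7KR replicate 2 highest for both this sum and Fn1, although the sum overlapped between the genotypes. The part of other cells in Fn1 was not tested. Tnc, tenascin-C, a ligand of α9β1, gave 1.03, 0.847 and 2.49 CPM against 7.57, 2.43 and 2.13 CPM, and its log2 fold change of 1.47 (SE 0.63) fell to 0.65 without Pax7KR replicate 1. Vcam1, the α4β1 ligand, was expressed by the cells themselves at 304 and 319 TPM on average (log2 fold change -0.01, SE 0.07), far above Itga4. Fbn1 had a log2 fold change of -0.14 (SE 0.07), and Ccn1, an immediate-early matrix protein that binds αv integrins, varied from 326 to 689 CPM within Pax7WT.

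**Figure D5:**
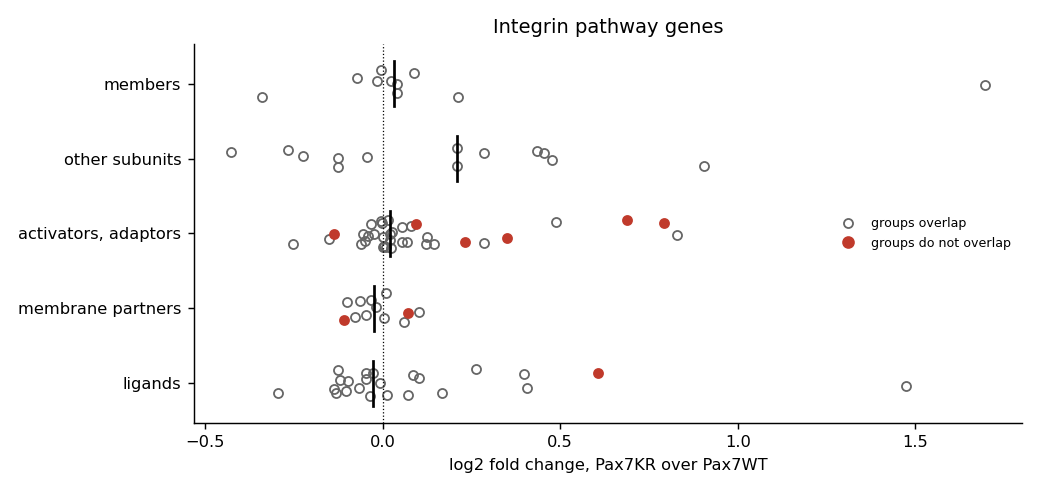
Log2 fold change of Pax7KR over Pax7WT for each tested gene of the 10 members and of 4 further integrin lists, with 1 point per gene (filled where the groups' CPM do not overlap) and a black line at each list's median. No member is filled, and the filled points are 6 activators or adaptors, 2 membrane partners and the ligand Fn1.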

How the data were processed

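RNA-sequencing of 3 Pax7WT and 3 Pax7KR samples was analysed, grouped by their labels. The authors made libraries from 15 ng of RNA with a directional kit and quantified reads per transcript with Salmon (version 1.3.0) on GRCm38. They deposited estimated counts, which are not normalized, and TPM values, which are relative to transcript length and library total. A deposited table of the authors' own comparison (means, fold changes, p-values) was not used here.

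Estimated counts were summed per gene and rounded. Of 140992 transcripts, 139791 were assigned to genes through GENCODE M21, which is older than the release used upstream but on that build, and the 1201 others, 0.606% of reads, were left out. A gene needed at least 5 reads in at least 2 libraries, and genotype was tested with edgeR (version 4.0.16, TMM, quasi-likelihood test, robust), with Benjamini-Hochberg adjustment over 17152 genes and a cut-off of 0.1. Intervals are 95%. DESeq2 (version 1.42.0), other scalings, filters and length offsets, a replicate block and leaving out each library were alternatives. Fits were tested on simulated data. Shares were compared by an exact permutation test (scipy, version 1.17.1). For alternative exons, coding transcripts that span the exon were counted.

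The members and lists were chosen with earlier results of these data known. The genes named are the 10 members, other subunits with a mean of 1 TPM or more, for each other list the 3 smallest unadjusted p and the 2 highest levels, the sort genes and Pax7. Fermt3, Parvb and the marker genes of other cells were named after their values were seen, as were the summed protein-coding TPM and Itga6-203 in the tail exon share, which were added as alternatives. No 2 libraries agreed within sampling noise. No sign of pairing by replicate number was seen, and genotype was fitted without it.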

Additional observations from a re-analysis of the deposited data

How the results depend on the processing

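The members were refitted 149 times under other settings, and 17 fold changes changed sign. Of the 148 refits with an adjusted p, 0 passed the threshold (0.587 to 1.000). Without 1 library, the log2 fold change of Itga3 ran from -0.029 to 0.12, of Itga4 from -0.86 to 0.075, of Itga5 from -0.037 to 0.19, of Itga6 from -0.078 to 0.50, of Itga9 from -0.29 to 0.55, of Itgav from -0.00058 to 0.068, of Itgb1 from -0.041 to 0.00014 and of Itgb5 from -0.089 to 0.072, whereas Itga7 and Itgb3 kept their sign. With library size as the only scaling Itgb1 was at 0.013 and Itgb5 at 0.024, and with mean transcript lengths in the fit Itgav was at -0.11 in edgeR and DESeq2. Members called stayed at 0 throughout. Members free of overlap numbered 0 to 2 without 1 library: 1 without Pax7WT replicate 3 (Itgb3), 1 without Pax7KR replicate 1 (Itgb1) and 2 without Pax7KR replicate 3 (Itga5 and Itga6). No share over all genes is given for 3 against 2 libraries, which separate more readily than 3 against 3. These counts are therefore not read as a result about the members. Over all genes, against 0 in edgeR, 30 were called by DESeq2, 45 by DESeq2 with the length offset, 157 by edgeR without a filter on low reads, and 1 to 32 without 1 library, the most without Pax7KR replicate 3. Of the other integrin lists, 1 gene was called by DESeq2 with or without the length offset and 3 without the filter (Fn1, Tnc and Tns1), and 0 to 1 without 1 library (Fn1 without Pax7KR replicate 3). The difference in the laminin-binding share was 0.228 percentage points in TPM and -1.23 in CPM. The causes were not tested. With a replicate block 13 genes and 0 members were called. Deviations of same-numbered samples had correlations of 0.0018, 0.0447 and -0.0558, against -0.0848 to 0.0818 for samples with different numbers. These values gave no sign of pairing by number but cannot exclude it. Itga4 was not tested with at least 10 reads required in every library, and DESeq2 with the length offset gave it no adjusted p. Itga4, Itga9 and Itgb3 had under 100 reads in most libraries, which limits what could be seen in them.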
